A study of Drosophila melanogaster with 17 samples.

Results

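Acetylcholine is made from choline and acetyl-CoA by choline acetyltransferase (ChAT), loaded into synaptic vesicles by the vesicular acetylcholine transporter (VAChT), and split in the synaptic cleft by acetylcholinesterase (Ace). The choline released by Ace is taken back into the nerve ending by a high-affinity transporter, while proteins of the choline transporter-like family, to which Ctl2 belongs, carry choline across cell membranes more generally. The intrinsic neurons of the adult mushroom body, the centre of olfactory learning in the insect brain, are known to be cholinergic, and their gamma class prunes its larval axon branches early in metamorphosis.

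The messenger RNA of these genes was followed in mushroom body neurons of Drosophila melanogaster at -18 h, 0 h and 5 h relative to puparium formation. All probe sets annotated to ChAT, VAChT, Ace or Ctl2 alone were taken, which gave 4 of the 13966 probe sets tested and 3 of the 10844 genes measured by a single-symbol probe set. ChAT had 2 probe sets (142522_at and 151604_s_at), Ace had 1 (152974_at) and Ctl2 had 1 (141361_at). VAChT had 0 probe sets with its symbol, so its level was not analysed here.

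Of the 17 arrays, 7 held larval samples (-18 h), 7 samples of white prepupae (0 h) and 3 pupal samples (5 h). All animals had the genotype yw;UAS-mCD8::GFP/+;;OK107-GAL4, in which the OK107-GAL4 driver puts membrane-bound GFP into mushroom body neurons of every class, so gamma neurons were not separated from the others and every group carried the transgenes. Larvae were staged by a blue dye in the gut. GFP-marked cell bodies were cut from frozen sections by laser capture, many captures made up the sample of each array, and their RNA went through repeated linear amplification before hybridisation. The labels do not say how many animals stood behind a pool, so p-values measure the spread between these pooled samples.

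The values are log2 RMA summaries of probe brightness, and their precision is limited by the number of arrays. Array medians lay between 4.32 and 4.43. The mushroom body gene ey was high throughout, at 8.45 to 9.23 in larvae, 8.42 to 9.11 at 0 h and 8.69 to 8.81 at 5 h. Its medians were 9.15, 8.63 and 8.73. Another marker of these neurons, prt, went from 8.03 to 8.88 in larvae to 5.47 to 6.53 at 0 h and 4.16 to 4.33 at 5 h. Of 10 mushroom body markers 1 was higher and 2 were lower at 0 h, beside 13.6% and 11.9% of all probe sets. Some libraries stood apart: in larvae, salivary glue genes gave clear signal in arrays 1, 4 and 6 and the muscle gene Mlc2 in arrays 5, 6 and 7, with 0 such arrays at 0 h and 5 h. The hybridisation spike-ins are bacterial and phage transcripts added after amplification. By their mean log2 signal the arrays were divided at a chosen cut into a lower and a higher set. The cut lay between larval array 5 (9.97) and 0 h array 4 (10.14). The next values were 9.77 below (0 h array 2) and 10.38 above (larval array 7). The signal thus had no clear gap at the cut, and the sets are a division of a continuous range. The lower set held 3 larval arrays, 3 arrays at 0 h and all 3 at 5 h, so that the 5 h group had no array in the higher set.

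Between -18 h and 0 h the genes at either end of acetylcholine metabolism moved in opposite directions. Both probe sets for ChAT, the enzyme of synthesis, fell by more than 2-fold. Ace, the enzyme of breakdown, rose 5.57-fold, and Ctl2 rose 20.2-fold. Between 0 h and 5 h none of the 4 probe sets passed the test. The comparison asks which transcripts differ between larval neurons and neurons at the onset of pruning, and 5 h covers its early steps.

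ChAT was first read through probe set 142522_at. Its lowest, median and highest values were 6.02, 6.42 and 6.86 log2 at 0 h, against 7.30, 7.68 and 8.05 in larvae. The 3 arrays at 5 h gave 6.81, 6.50 and 6.49. Every array at 0 h and 5 h lay below every larval array, and the 5 h values sat inside the range at 0 h. The mean was 6.49 ± 0.284 at 0 h and 7.68 ± 0.277 in larvae (SD, n = 7 each), a change of -1.20 (SE 0.13) or 2.29-fold lower (95% confidence interval 1.90 to 2.76), with an adjusted p of 2.87e-07 by limma. In captured tissue, fewer cells of a type and less RNA per cell cannot be told apart.

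The second ChAT probe set, 151604_s_at, gave the same direction. It had lowest, median and highest values of 5.70, 5.999 and 6.22 at 0 h, against 6.60, 7.43 and 7.82 in larvae, and 6.19, 6.04 and 5.92 in the 3 arrays at 5 h. The larval arrays again lay above all others, the nearest being larval array 6 at 6.60. Its change at 0 h was -1.34 (SE 0.14), or 2.53-fold lower (interval 2.07 to 3.08), with an adjusted p of 1.27e-07 by limma. The change did not differ detectably between the ChAT probe sets: the second minus the first came to -0.14 log2, with an exact two-sided permutation p of 0.538 (0.807 after Benjamini-Hochberg adjustment over 3 comparisons, a test chosen after the values were seen). Within a group the probe sets ranked the arrays differently, with a Pearson r of 0.18 over the 7 arrays at 0 h and -0.04 over the 7 larval arrays.

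VAChT lies inside ChAT and shares its annotated start in the RefSeq Release 6 gene table, on chromosome arm 3R, an arrangement long known as the cholinergic gene locus. The name of the second ChAT probe set (ending in _s_at) marks probes shared by several transcripts. The probe sequences were not used here, so whether either ChAT probe set also reads transcripts of VAChT is not known. The genes CG7714 and CG7715 also lie within ChAT, and their changes at 0 h were -0.02 and 0.04 log2, neither past the test.

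Ace was the enzyme gene with the larger change. Its lowest, median and highest values were 9.29, 10.11 and 10.39 at 0 h, against 7.21, 7.44 and 8.07 in larvae, and the 5 h arrays gave 10.07, 10.21 and 10.31. All arrays at 0 h and 5 h lay above all larval arrays, with more than a full log2 unit between the lowest at 0 h (array 7) and the highest larva (array 4). The mean was 9.997 ± 0.343 at 0 h and 7.52 ± 0.278 in larvae (SD, n = 7 each), a rise of 2.48 (SE 0.14) or 5.57-fold (interval 4.55 to 6.81), with an adjusted p of 1.78e-11 by limma. It was the rise of rank 22 among the 13966 probe sets.

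Ctl2 had the widest gap. Its values ran from 8.50 to 8.98 with a median of 8.79 at 0 h, against 4.25 to 4.71 with a median of 4.46 in larvae, and the 5 h arrays gave 8.75, 8.62 and 8.60. No later array came near a larval one. The rise at 0 h was 4.33 (SE 0.09) or 20.2-fold (interval 17.8 to 22.9), with an adjusted p of 9.87e-19 by limma, and it ranked 3 among all rises. Larval Ctl2 signal lay near the array medians, and without detection calls the share of it that is background is not known.

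**Figure D1:**
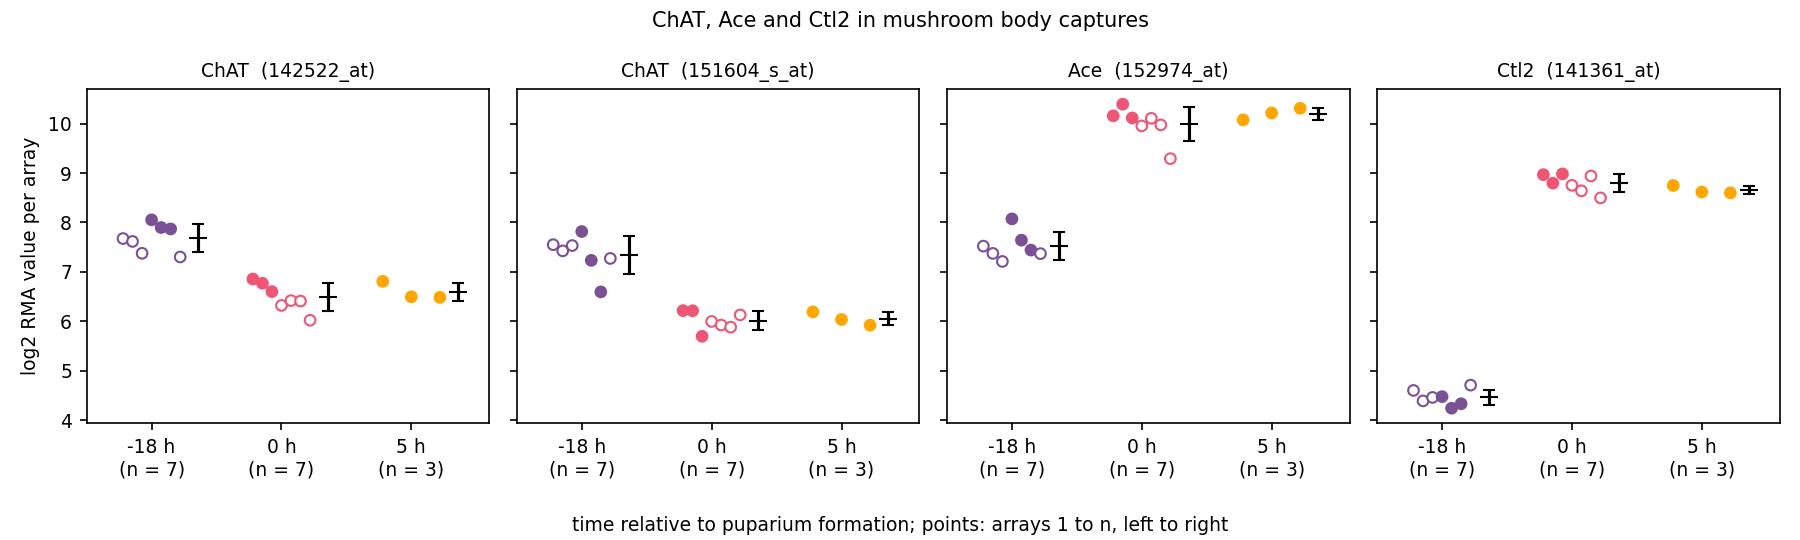
Log2 RMA value of each array (vertical axis) for the ChAT, Ace and Ctl2 probe sets at -18 h, 0 h and 5 h. Points are arrays in the order of their numbers, filled for the lower and open for the higher spike-in set, and the black mark beside them is the mean ± SD. Larval arrays stand above all others for ChAT and below all others for Ace and Ctl2, while the 0 h and 5 h points overlap.

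Set against the whole array, these calls were 2 probe sets lower and 2 higher out of 4 at 0 h. Of all probe sets, 11.9% were called lower and 13.6% higher in the same comparison, and the median change over all of them was -0.02 log2. The ChAT probe sets held ranks 169 and 132 among the falls. For each of the 4, the exact two-sided permutation test over the arrays gave p = 0.000583, the smallest that 7 against 7 arrays allow. It restates that the groups did not overlap, and the share of all probe sets that separate so is not given here. All 4 also passed limma's F test for a difference at any time, with adjusted p between 1.34e-18 and 5.53e-07.

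From 0 h to 5 h, none of the members showed a change past the test, and the groups overlapped for all of them. Ace differed by 0.20 log2 at 5 h against 0 h (interval -0.17 to 0.58), with means of 10.2 ± 0.118 (SD, n = 3) and 9.997 ± 0.343 (SD, n = 7). Ctl2 differed by -0.14 (interval -0.38 to 0.09). The ChAT probe sets differed by 0.11 (interval -0.24 to 0.46) and 0.04 (interval -0.32 to 0.41). The adjusted p by limma was 0.666 for Ctl2, 0.709 for Ace, and 0.860 and 0.952 for ChAT, and the exact permutation p ran from 0.233 to 0.733, where 3 against 7 arrays allow 0.0167 at the lowest. These intervals still admit changes of up to about 0.58 log2 in Ace. Over all probe sets 2.36% were called higher and 1.42% lower at 5 h.

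At 5 h against -18 h the members stood where they had stood at 0 h. Ctl2 was 18.3-fold higher (log2 4.19, SE 0.11, adjusted p = 3.10e-16 by limma) and Ace 6.41-fold higher (2.68, SE 0.18, adjusted p = 5.32e-10 by limma). ChAT was 2.12-fold lower by the first probe set (-1.09, SE 0.17, adjusted p = 5.58e-05 by limma) and 2.45-fold lower by the second (-1.30, SE 0.18, adjusted p = 1.26e-05 by limma). By adjusted p, 11.0% of all probe sets were called higher and 9.06% lower. No 5 h array overlapped a larval array in any member probe set. The exact permutation p of each was 0.0167, the smallest that 3 against 7 arrays allow. How many of all probe sets separate in this way is not given here. This comparison shares the larval arrays with that at 0 h.

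**Figure D2:**
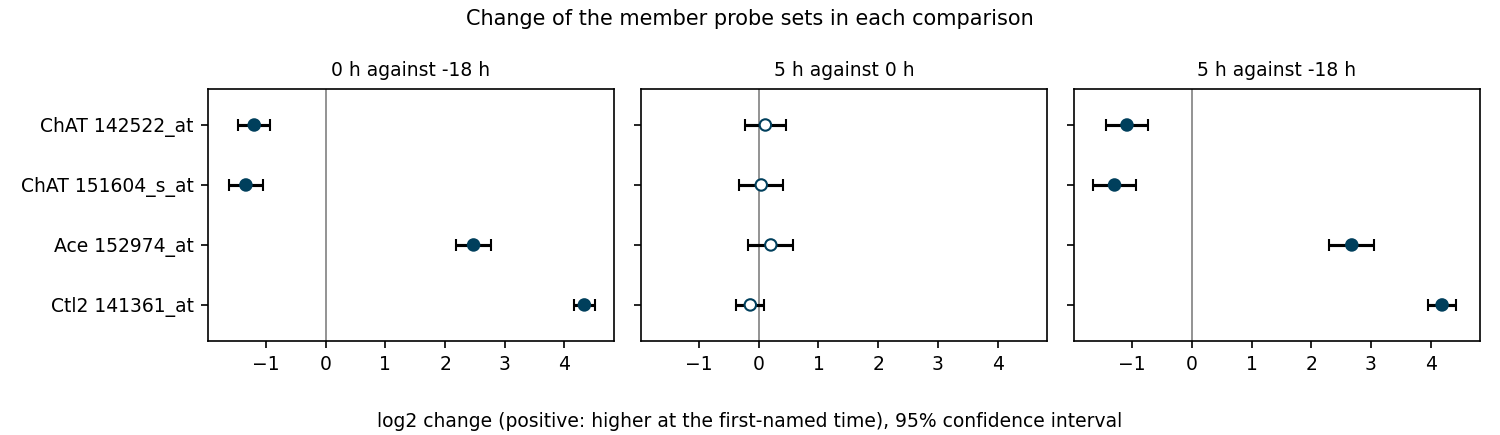
Log2 change (horizontal axis) of each member probe set in the 3 comparisons, with 95% confidence intervals; filled points passed an adjusted p of 0.05 and positive values are higher at the time named first. At 0 h against -18 h the ChAT probe sets lie at -1.20 and -1.34, Ace at 2.48 and Ctl2 at 4.33. All intervals for 5 h against 0 h include 0.

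Several measures of the captures moved over the same times as the members. The counts of markers and of genes in lists at 0 h stand beside 13.6% higher and 11.9% lower over all probe sets. Of 9 glial markers 1 was higher and 2 were lower at 0 h, with repo rising by 1.04 log2 and wrapper falling by 0.77, and the log2 of the summed glial signal ran from 8.92 to 9.54 at 0 h and from 9.22 to 9.70 in larvae. Of 6 hemocyte markers 1 was higher (Pxn, 1.02) and 2 lower, with sums of 7.07 to 7.40 at 0 h and 6.56 to 7.14 in larvae, and the blood cell markers Hml, NimC1 and srp were under the lower quartile of all values in every array at 0 h. Of 9 neuroblast and cell cycle markers 0 were higher and 4 lower, with sums of 8.03 to 8.58 at 0 h and 8.63 to 9.08 in larvae. Of 4 fat body markers 0 were higher and 2 lower, with sums of 7.35 to 9.46 at 0 h and 8.27 to 11.3 in larvae. Among 10 mushroom body markers 1 was higher and 2 lower, and their sums hardly differed (11.3 to 11.7 in either group). At 5 h the sums ran from 9.50 to 9.62 for glia, 7.30 to 7.57 for hemocytes and 8.28 to 8.33 for neuroblast and cell cycle markers. They ran from 8.94 to 10.8 for fat body and from 11.3 to 11.6 for mushroom body markers. The part of these measures in the members' changes was not tested.

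Of the remaining marker lists, salivary glue had 0 higher and 2 lower of 6, muscle 2 higher and 2 lower of 7, neuron 0 higher and 1 lower of 4, and cuticle and photoreceptor 0 of 2 each. The difference between 3′ and middle probe sets of the control gene eIF4a, a sign of RNA length, was 3.03 ± 0.0845 in larvae (SD, n = 7), 2.81 ± 0.202 at 0 h (SD, n = 7) and 2.58 ± 0.0121 at 5 h (SD, n = 3). With only larval arrays 2 and 3, which had neither glue nor muscle signal (a choice made after seeing the data), the changes at 0 h were 4.37 for Ctl2, 2.70 for Ace, and -1.01 and -1.47 for ChAT. Among arrays of higher and of lower spike-in signal taken alone, Ace rose by 2.46 and 2.50 and Ctl2 by 4.16 and 4.56, and the first ChAT probe set fell by 1.20 in each. The second fell by 1.46 within the higher and 1.17 within the lower set.

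At 0 h and in larvae, arrays with more ChAT by the first probe set tended to have more Ace, whereas the 3 arrays at 5 h ran the other way. Over the 7 arrays at 0 h Pearson's r was 0.88 (two-sided exact permutation p = 0.0111) and Spearman's rho 0.96 (p = 0.00278), and over the 7 larval arrays they were 0.82 (exact p = 0.0107) and 0.93 (p = 0.00675). Without the 2 arrays farthest from the median of ChAT, r was 0.93 at 0 h and 0.86 in larvae. Of 20 such relations computed, these did not pass adjustment by Benjamini-Hochberg, at 0.0741 for both r values and 0.0556 and 0.0675 for rho. The same ChAT probe set went down with the spike-in signal (r = -0.89 at 0 h and -0.74 in larvae), as did Ace (-0.69 at 0 h and -0.53 in larvae), and the part of that signal in the relation was not tested. The second ChAT probe set had r with Ace of -0.03 at 0 h and 0.39 in larvae.

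**Figure D3:**
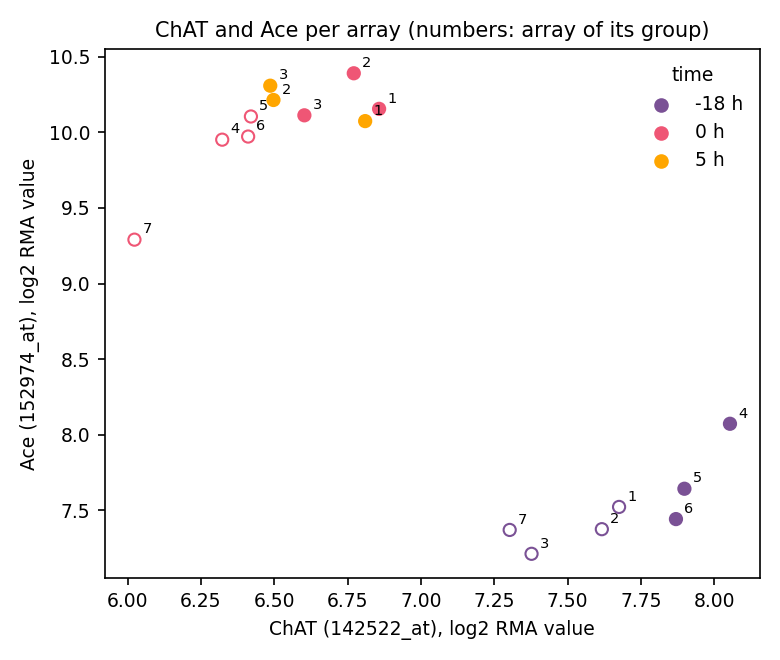
Ace (152974_at) against ChAT (142522_at), both as log2 RMA values, for the 17 arrays, numbered within their group and filled for the lower and open for the higher spike-in set. Larval arrays lie at low Ace and high ChAT and the later arrays at high Ace and low ChAT, and 0 h array 7 has the lowest value of its group on both axes.

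Choline for acetylcholine synthesis reaches nerve endings through the high-affinity choline transporter, encoded by ChT. ChT had lowest, median and highest values of 5.34, 5.64 and 5.91 at 0 h, against 7.04, 7.68 and 8.17 in larvae, and 5.62, 5.48 and 5.36 in the 5 h arrays. As for ChAT, no later array reached the larval range. ChT fell by 2.01 log2 at 0 h, to a level 4.03-fold lower (SE 0.13, adjusted p = 2.04e-10 by limma), and its difference at 5 h against -18 h was -2.15 (adjusted p = 7.21e-09 by limma). By the annotation, 4 genes lie between ChT and ChAT on arm 3R.

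Ctl1, another choline transporter-like gene, rose at 0 h by 0.61 log2 (adjusted p = 1.60e-05 by limma). Its values ran from 6.36 to 6.93 at 0 h and from 5.99 to 6.40 in larvae, a narrow overlap. Of the 12 measured genes of choline uptake and choline phospholipid metabolism (of 14 listed), 3 rose and 2 fell at 0 h, with a median change of 0.01, and the median of all probe sets was -0.02. The others that rose were sws (0.76), the phospholipase that splits phosphatidylcholine, and CG33116 (0.81). Pect, which makes the activated ethanolamine for phosphatidylethanolamine, fell by 0.71 at 0 h and was higher by 0.86 at 5 h against 0 h (adjusted p = 0.000853 by limma). CG7149 was also higher at 5 h against 0 h (0.48) and bbc, a phosphotransferase of phospholipid synthesis, lower (-0.52), which made 2 higher and 1 lower. The call of CG7149 was lost with the replicate block (adjusted p = 0.0616 by limma), within the lower spike-in set (0.0783) and without 5 h array 2 (0.113), and that of bbc within the lower set (0.0598). Against -18 h, 4 were higher and 2 lower at 5 h.

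The acetyl group of acetylcholine comes from acetyl-CoA. Among 6 measured genes of acetyl-CoA supply (of 9 listed), 0 rose and 4 fell at 0 h, with a median change of -0.44. Over all probe sets 13.6% were called higher and 11.9% lower there. AcCoAS, which makes acetyl-CoA from acetate, ranged from 5.62 to 6.68 at 0 h and from 7.21 to 7.65 in larvae, without overlap, and its change was -1.23 (adjusted p = 5.09e-08 by limma). ATPCL, which makes acetyl-CoA from citrate, ranged from 7.18 to 7.69 at 0 h and from 8.07 to 9.16 in larvae, also without overlap (-1.04, adjusted p = 2.51e-06 by limma). The smaller falls were those of Pdp (-0.48), the phosphatase that activates pyruvate dehydrogenase, and CG7430 (-0.40). Within the lower spike-in set CG7430 did not pass at 0 h (adjusted p = 0.125 by limma). All 4 genes were lower at 5 h against -18 h, CG7430 with its call lost under 5 of 28 alternatives, among them those without 5 h array 2 or 3, and 0 of the 6 passed at 5 h against 0 h.

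**Figure D4:**
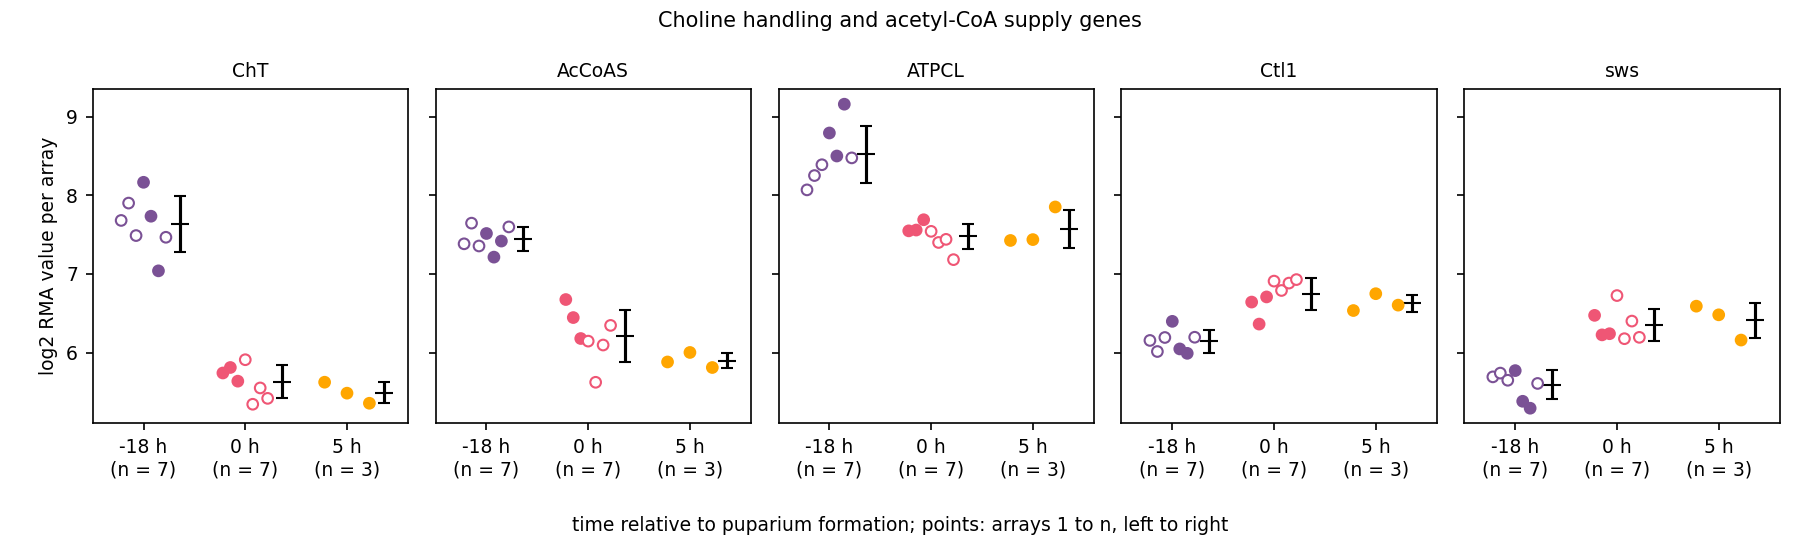
Log2 RMA value of each array (vertical axis) for ChT, AcCoAS, ATPCL, Ctl1 and sws at -18 h, 0 h and 5 h, with points filled for the lower and open for the higher spike-in set and the mean ± SD in black. ChT, AcCoAS and ATPCL are lower in every 0 h and 5 h array than in any larval array; sws is higher in every one, and Ctl1 overlaps slightly between 0 h and -18 h.

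The enzymes closest to ChAT in sequence family are the carnitine acyltransferases. Of the 5 measured, CROT (0.60) and CRAT (0.33) rose at 0 h, whd, the carnitine palmitoyltransferase of mitochondria, fell (-0.57), and the other two did not pass; the median was -0.05. None of the 5 passed at 5 h against 0 h (0 of 5), and at 5 h against -18 h CROT was higher and whd lower. The call of CRAT at 0 h was lost under 5 of 29 alternatives (adjusted p of 0.0566 to 0.253 by limma), including quantile normalisation, either spike-in set alone and the fit without 0 h array 3, and that of CROT within the lower set (0.0871). At 5 h against -18 h, CROT lost its call under 3 of 28, among them the fit without 5 h array 2, and whd under 8 of 28, including each fit without a 5 h array and the replicate block (0.134).

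Acetylcholine acts on nicotinic receptors, which are ion channels assembled from the subunits of several genes, and on muscarinic receptors, which couple to G proteins. Of 9 measured nicotinic subunits (of 10 listed), 1 rose and 2 fell at 0 h, with a median change of -0.0039. The subunit nAChRalpha2 had lowest, median and highest values of 9.39, 9.42 and 9.64 at 0 h, against 7.26, 7.43 and 7.97 in larvae, and 8.93, 9.04 and 8.77 in the 5 h arrays. The 3 groups did not overlap. Its rise was 1.95 log2 or 3.88-fold at 0 h (adjusted p = 7.54e-13 by limma), and at 5 h it was lower than at 0 h by 0.55 on the log2 scale (adjusted p = 0.00710 by limma). That call at 5 h was lost within the lower spike-in set (adjusted p = 0.0763 by limma) and without 5 h array 3 (adjusted p = 0.0788 by limma).

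The subunit nAChRbeta1 ranged from 4.35 to 4.99 at 0 h, from 5.49 to 6.10 in larvae and from 4.59 to 4.73 at 5 h. It fell by 1.12 log2 at 0 h (adjusted p = 2.96e-08 by limma) without overlap with the larvae. nAChRalpha5 fell by 0.35, while its other probe set changed by -0.11, and it did not pass within the higher spike-in set (adjusted p = 0.0532 by limma) or with only larval arrays 2 and 3 (0.0530). At 5 h against 0 h 0 subunits were higher and 1 lower, and at 5 h against -18 h 2 were higher (nAChRalpha2 and nAChRalpha7) and 2 lower (nAChRbeta1 and nAChRalpha5). There nAChRalpha7 lost its call under 6 of 29 alternatives, namely without any of the 5 h arrays, within the lower spike-in set (adjusted p = 0.156 by limma), without larval arrays with muscle signal (0.130) and over its probe sets. The call of nAChRalpha5 was lost under 15 of 29 (adjusted p of 0.0518 to 0.206 by limma), including the replicate block, 5 h arrays 1 or 3 left out and larval arrays 1, 2, 3, 4, 5 or 7 left out. Of the 2 measured muscarinic receptors (of 3 listed), 0 passed at 0 h (median -0.13) or at 5 h against 0 h, and mAChR-B was lower at 5 h against -18 h (-0.33), a call lost under 5 of 28 alternatives, among them those without 5 h array 1 or 2.

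Of 7 measured genes of the cholinergic synapse and of receptor assembly (of 8 listed), 1 rose and 1 fell at 0 h, with a median change of 0.06. Hasp, a scaffold of the extracellular matrix at cholinergic synapses, fell by 1.04 log2 at 0 h (adjusted p = 4.54e-08 by limma) and by a further 0.67 at 5 h against 0 h (adjusted p = 0.00273 by limma). Its values were 5.39, 5.09 and 5.14 at 5 h, from 5.62 to 6.18 at 0 h and from 6.60 to 7.10 in larvae, so each time lay below the one before. Its other probe set changed by -0.36 at 0 h. RIC-3, a chaperone of nicotinic receptors, rose by 0.77 at 0 h, and its other probe set changed by -0.12. RIC-3 was also higher at 5 h against -18 h (lost within the lower spike-in set, adjusted p = 0.0983 by limma), where Hasp and Nlg4 were lower. The call of Nlg4 (-0.33, adjusted p = 0.0490 by limma) lay at the threshold and was lost under 21 of 29 alternatives, including the replicate block, each fit without a 5 h array, and those without 0 h arrays 1, 3, 4, 5, 6 or 7 or larval arrays 1, 2, 3, 5 or 7. Over all its probe sets Nlg4 changed by 0.12, the opposite sign.

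Genes of other transmitters were read beside ChAT. Of 12 measured vesicular transporters and enzymes of other transmitters (of 14 listed), 0 rose and 3 fell at 0 h: prt, a vesicular transporter of mushroom body neurons (-2.59), Ddc, the aromatic amino acid decarboxylase (-1.55), and Vmat, the monoamine transporter (-0.55). Vmat did not pass within the lower spike-in set (adjusted p = 0.0687 by limma). The median change of the 12 was -0.0015. The glutamate transporter VGlut (3.59 to 3.96 at 0 h and 3.35 to 4.10 in larvae), the GABA enzyme Gad1 (4.93 to 5.33 at 0 h and 4.71 to 5.31 in larvae) and the dopamine enzyme ple (3.82 to 4.27 at 0 h and 3.87 to 4.26 in larvae) did not pass. DAT, the dopamine transporter, was higher at 5 h against 0 h (0.80) and prt lower (-1.73), and at 5 h against -18 h 1 was higher and 2 were lower. Many of the 12 had low signal. The larval means of VGlut (3.69), ple (4.03), SerT (3.90), DAT (3.94), Tdc1 (3.79), Tbh (2.65) and Hdc (2.58) lay under the array medians. A fall may not show there, and the median change of the list rests in part on such genes.

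Of 12 measured pan-neuronal genes (of 15 listed), 0 rose and 4 fell at 0 h, namely futsch (-2.36), Rop (-0.78), Syn (-0.51) and brp (-0.34), and the median change was -0.05. The other 2 probe sets of futsch changed by 0.00 and 0.02, so its fall rests on a single probe set. Over all its probe sets brp changed by 0.08, the opposite sign, and its call was lost under 8 further alternatives, among them those without 0 h array 6 or 7 or larval array 3, 4 or 7 (adjusted p of 0.0507 to 0.0805 by limma). Syn did not pass within the lower spike-in set (adjusted p = 0.0597 by limma) or with only larval arrays 2 and 3 (-0.20, adjusted p = 0.240 by limma). Its means, 3.24 in larvae and 2.73 at 0 h, lay under the lower quartile of all values (3.395). The larval means of para (2.86), cac (3.82) and unc-104 (4.28) lay under the array medians, where a fall may not show. Those of elav (4.50), nSyb (4.77) and Appl (5.03) lay a little above them, where a fall as large as that of ChAT may show only in part. At 5 h 0 of the 12 passed against 0 h. Against -18 h 0 were higher and 3 lower, namely futsch, Rop and cac, and the calls of Rop and cac were lost under 7 of 28 and 19 of 29 alternatives. Among these were 5 h arrays 1 or 2 left out for Rop, and for cac any 5 h array, 0 h arrays 2, 4 or 5, or larval arrays 1, 2, 3, 4 or 7 left out. The falls of ChAT by both probe sets, at -1.20 and -1.34, lay outside the pan-neuronal changes other than that of futsch, a description of values that was not tested.

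**Figure D5:**
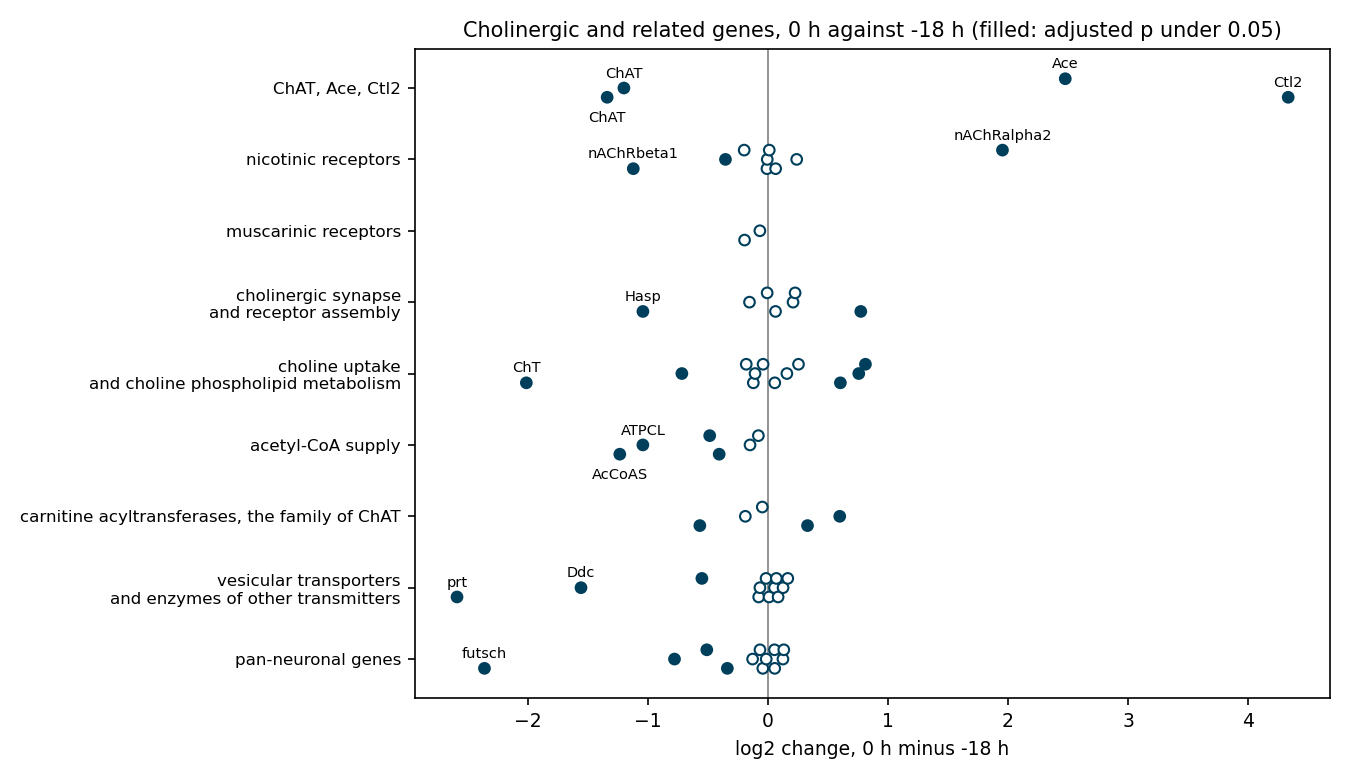
Log2 change at 0 h minus -18 h (horizontal axis) of ChAT, Ace and Ctl2 and of each measured gene of the related lists (rows); filled points passed an adjusted p of 0.05 and genes with a change of about 1 log2 unit or more are named. On the left lie prt and futsch, the farthest out, then ChT, Ddc, ChAT, AcCoAS, nAChRbeta1, Hasp and ATPCL. Ace, Ctl2 and nAChRalpha2 lie to the right, and most other genes near 0.

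Genes with the most similar course over the 17 arrays were ranked by the root mean square difference from the member, with each gene centred on its own mean, which sets shape and size of change but not level. For ChAT (142522_at) the nearest were CG32278 at 0.130 log2, Glys at 0.189, GC1 at 0.190, FASN1 at 0.197 and CG5567 at 0.199, where the median over all other genes was 0.644. Glys encodes glycogen synthase and FASN1 a fatty acid synthase, and their changes at 0 h were -1.45 and -1.02. For Ace the nearest were Ypel at 0.238, CG16721 at 0.257, Snp at 0.316, orion at 0.336 and pch2 at 0.348, against a median of 1.31. For Ctl2 they were CG33232 at 0.357, CG12880 at 0.383, CG18528 at 0.482, Jhbp2 at 0.571 and isoQC at 0.632, against a median of 2.14. Changes at 0 h among these were 2.41 to 2.60 for the Ace set and 3.09 to 5.44 for the Ctl2 set. From 0 h to 5 h the Ctl2 set was less alike. Jhbp2 changed by -1.29, isoQC by 0.66 and the others by 0.05 to 0.25, against -0.14 for Ctl2.

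Of the 18 genes formed by the 3 nearest measured genes on each side of ChAT, Ace and Ctl2, on arm 3R, 2 rose and 4 fell at 0 h. Over all probe sets 13.6% were called higher and 11.9% lower. Next to ChAT, Mekk1 rose by 0.85, and CG14302 fell by 1.35, about as much as ChAT. Next to Ace, Ravus rose by 0.64 where Ace rose by 2.48, and the immediate neighbours CG8476 and CG11686 changed by -0.17 and -0.27 without passing. Next to Ctl2, Vha100-1 and Alg13 fell by 0.36 and 0.32, and yem and dgt6 changed by -0.11 and -0.15 without passing. At 5 h against 0 h 0 of the 18 passed.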

How the data were processed

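The 17 deposited columns hold log2 values per probe set. RMA and Affymetrix Expression Console are the tools that the submitters' processing notes list for the values deposited by the authors; the sources used here give neither versions nor a genome build, and whether the arrays were normalised jointly is not stated. All columns were matched to samples by their labels (0 unmatched) and used as they stand. The table lists 14010 probe sets, of which 13966 remained for testing without the 44 controls. Gene symbols are those of the array's annotation, updated through RefSeq Release 6, whose gene table was used for names and gene order; 12443 probe sets had 1 symbol, 327 several and 1196 none.

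A model with 3 groups was fitted to all probe sets with limma 3.58.1 in R 4.3.3, two-sided, with Benjamini-Hochberg adjustment over all probe sets of a comparison and a threshold of 0.05. Every adjusted p for a gene is limma's. Exact permutation tests used scipy 1.17.1. The code was tested on simulated data. For lists, the probe set of highest mean stood for a gene.

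All probe sets of ChAT, VAChT, Ace and Ctl2 were to be named, and of each other list up to 4 genes of smallest p per comparison among those past the threshold, with the 5 genes of most similar course per member; other genes named, the neighbours, the correlations and the test between the ChAT probe sets were chosen after values were seen. The members and lists were chosen with earlier results of these data known. The planned test of ChAT against VAChT was replaced because VAChT has 0 probe sets. Whether replicate numbers shared between groups pair the arrays is not stated by the labels, and the arrays were treated as unpaired. Of 13 same-number pairs 2 had a correlation of deviations above 0.1, with a range of -0.28 to 0.37. Of the 78 other pairs 17 had one, with a range of -0.38 to 0.32. So few pairs cannot decide the question. Alternatives were a replicate block, the spike-in sets, normalisation, filters, and leaving out arrays.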

Additional observations from a re-analysis of the deposited data

Results flagged for a closer look

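Of 8 sets of 7 arrays formed by the member probe sets at 0 h and -18 h, 1 held an array standing apart from the rest. Ace in 0 h array 7 was 9.29, against 9.95 to 10.39 in the other arrays of its group, and the gap to the nearest of them was 0.601 of the group's range. With 8 sets examined at the 95% level, a single such array can arise by chance. The same array had the highest spike-in signal of its group, at 10.7, and the lowest value of its group for Ctl2 (8.50) and for ChAT by probe set 142522_at (6.02), but not by 151604_s_at (6.13). Without it the rise of Ace at 0 h was 2.60 log2, and with it 2.48.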

How the results depend on the processing

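For ChAT, Ace and Ctl2 the direction and the side of the threshold at 0 h against -18 h were kept under all 30 alternatives per probe set, with changes from -1.27 to -1.01 and -1.57 to -1.17 for ChAT, 2.41 to 2.70 for Ace and 4.16 to 4.56 for Ctl2, and a highest adjusted p of 0.00947. With the replicate block the changes were -1.20, -1.34, 2.48 and 4.33, as in the fit as reported. Larvae and 0 h hold the same replicate numbers, so that block could move only the p-values of this comparison. So could the spike-in block, a robust fit, the filter on dim probe sets and the fit of only these groups. It also holds for the fits without a 5 h array and the permutation test. Under these alternatives the size of the change was fixed in advance and is no further support. No member passed at 5 h against 0 h under any alternative run, and the replicate block changed no call of a member. Over all probe sets, the count lower at 0 h was 986 within the lower spike-in set, against 1665 in the fit as reported, and that higher at 5 h against 0 h was 212 with the replicate block and 179 within the lower set, against 329 as reported. Leaving out each array gave counts at 5 h against 0 h of 201 to 348 higher and 92 to 222 lower, against 198 lower with all arrays. Against -18 h it gave 784 to 1590 lower at 5 h, against 1266 with all arrays. The lowest counts came without 5 h arrays 1 and 2 (201 higher each), 5 h array 3 (92 lower) and 5 h array 2 (784 lower), each of which leaves 2 arrays at 5 h. Taking the median over all probe sets of a gene, Nlg4 at 5 h against -18 h was 0.121 and brp at 0 h 0.0813, both opposite in sign, and futsch at 0 h was 0.00; the cause was not tested. Of the other results on lists and other genes, 2738 kept direction and side, 118 lost the call, 87 counts moved by over 1.5 times and 2 turned sign. The comparison of ChAT with VAChT was not run. The 3 arrays at 5 h and the lack of detection calls limit what small changes and low signals can show.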
